A study of Mus musculus with 8 samples.

Results

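Mitochondrial protein import genes were described in brown adipose tissue (BAT), the thermogenic fat depot, of WT and Cd36KO mice. The members were the genes whose mouse symbol begins with Timm or Tomm, together with Grpel1, Grpel2, Pam16, Dnajc15, Dnajc19, Pmpca, Immp1l, Immp2l, Romo1, Chchd4 and Gfer. This rule, which uses names and no measured value, gave 38 of the 31053 genes in the count table, 37 of them protein-coding and 1 an antisense RNA (Tomm6os). It matched 0 pseudogenes in the table.

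Nearly all mitochondrial proteins are made in the cytosol and carried into the organelle. They enter through the TOM complex of the outer membrane and are then passed on. Small Tim proteins guide membrane proteins across the intermembrane space, the TIM22 complex inserts carriers into the inner membrane, and the TIM23 complex takes presequence proteins towards the matrix, where a motor built around the chaperone Hspa9 pulls them in and peptidases remove the presequence. BAT is rich in mitochondria, and its heat-producing protein Ucp1 is an inner membrane carrier.

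Gene expression was measured by bulk RNA-seq in 8 libraries, 4 labelled WT and 4 labelled Cd36KO. All mice were labelled as strain C57BL6/J and 8 weeks of age, and no drug, diet or other treatment was named in the labels. CD36 is a membrane receptor for fatty acids and oxidized lipoproteins, and the comparison asked what its loss did to the BAT transcriptome. The label names no promoter, Cre driver or cell type for the deletion. The study describes a germline deletion as well as floxed Cd36 crossed with Csf1r-Cre, which acts in macrophages and other myeloid cells, and assigns its BAT transcriptome to the latter. Its captions for that transcriptome give the age on the labels, whereas its methods give an older age at killing. In the count table, 1 Cd36KO column has a name without a number, and its library is called the unnumbered Cd36KO library. The captions count individual mice in each group. The labels do not tie a library to a mouse.

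Total counts ranged from 2679785 to 4097953 per library with no difference detected between groups (p = 0.914, exact permutation test, two-sided). Cd36 itself was still read in every library, at 2796, 2958, 3505 and 2412 normalized counts in WT 1 to 4 and at 1926 in the unnumbered library, 2109, 2384 and 1930 in Cd36KO 2 to 4. A normalized count is the count divided by the library's DESeq2 size factor. The groups did not overlap for Cd36, and its log2 fold change of -0.48 ± 0.16 (SE, n = 4 each) missed the threshold (DESeq2 adjusted p = 0.0602). Xist, transcribed from the inactive X chromosome, had between 772 and 1588 counts per library, whereas the Y-linked genes Uty, Kdm5d, Eif2s3y and Ddx3y together had 3 counts in all 8 libraries. The study's methods describe all of its mice as male.

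The labels give the tissue as BAT but the cell type as stromal vascular fraction, the cells left once adipocytes are removed. Adipocyte markers were nevertheless abundant in all libraries. The 8 brown adipocyte markers summed to between 4800 and 6350 CPM (counts scaled to a common library total) in WT and between 9270 and 10800 in Cd36KO, and 3 of the 7 tested passed the threshold, all higher in Cd36KO. Ucp1 was among them, with a log2 fold change of 0.82 ± 0.20 (SE; DESeq2 adjusted p = 0.00843). The 5 general adipocyte markers summed to 7790 to 11300 CPM in WT and 5150 to 7380 in Cd36KO, with 0 of 5 past the threshold. The 8 white fat markers in the table summed to 230 to 1590 CPM in WT and 179 to 305 in Cd36KO, and 4 of 6 tested were lower, with Hoxc10 at 0 in all libraries. The 12 skeletal muscle markers summed to 190 to 18600 CPM in WT and 12.9 to 1990 in Cd36KO, with 0 of 12 past the threshold. The 10 macrophage markers lay at 209 to 318 and 200 to 279 CPM and 1 of 8 tested was lower. Endothelial, fibroblast and smooth muscle sums overlapped between groups, with 0 called. In bulk tissue, fewer cells of a type and less RNA per cell cannot be told apart.

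Of the 38 members, 34 received an adjusted p. Tomm20l was at 0 in all 8 libraries, Timm8a2 had 1 count in all, and Timm8a1 and Tomm6os had at most 18 and 7 counts in any library, so none of these 4 was tested. Per kilobase of the longest annotated transcript, the highest mean normalized counts were those of Romo1 (2139), Tomm7 (733), Timm13 (556), Timm8b (424) and Timm10 (262), all genes of small proteins. Tomm20 (3.76) and Grpel2 (6.83) were the lowest of the 34. Where along the transcript the library kit reads is not given in the sources used here, and that sets how far such levels can be compared.

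Dnajc15, which encodes a J protein of the import motor, was the single member that passed the threshold, and it was higher in Cd36KO. Among the 34 tested members, 1 was called higher (1.42% of the 9617 tested genes were) and 0 were called lower (1.53% of tested genes were). At an unadjusted p under 0.05, 7 members were higher, against 7.69% of all tested genes, and 0 were lower, against 7.88%. The count of 7 was 13 without WT 4 (9.95% of the same 9617 genes), 4 without WT 2 (5.7%) and 2 without the unnumbered Cd36KO library (4.04%). The 7 were Dnajc15, Timm17b, Timm10b, Timm50, Timm22, Grpel1 and Tomm40l. The quasi-likelihood test of edgeR called 0 members in either direction (0.143% of its 9793 genes were called), with 6 members at an unadjusted p under 0.05, all higher (7.23% of its genes were).

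The members' log2 fold changes, Cd36KO over WT, had a median of 0.23 and ran from -0.67 (Tomm20) to 0.74 (Tomm6). They lay above 0 for 23 of 34 members, against 49.2% of all tested genes, whose median was -0.01. For 30 of the 34, the 95% interval stayed within a 2-fold change in either direction. At a mean normalized count of at least 50, 26 members remained, and 3 of them had all Cd36KO libraries above all WT libraries (6.91% of the 5528 genes at that level did). These were Dnajc15, Timm17b and Timm44. Without WT 3 the count was 5 (8.88% of genes) and without Cd36KO 2 it was 6 (11.5%). In 0 of the 26 did all Cd36KO libraries lie below (3.96% of genes did), and in either direction 10.9% of genes were separated.

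**Figure D1:**
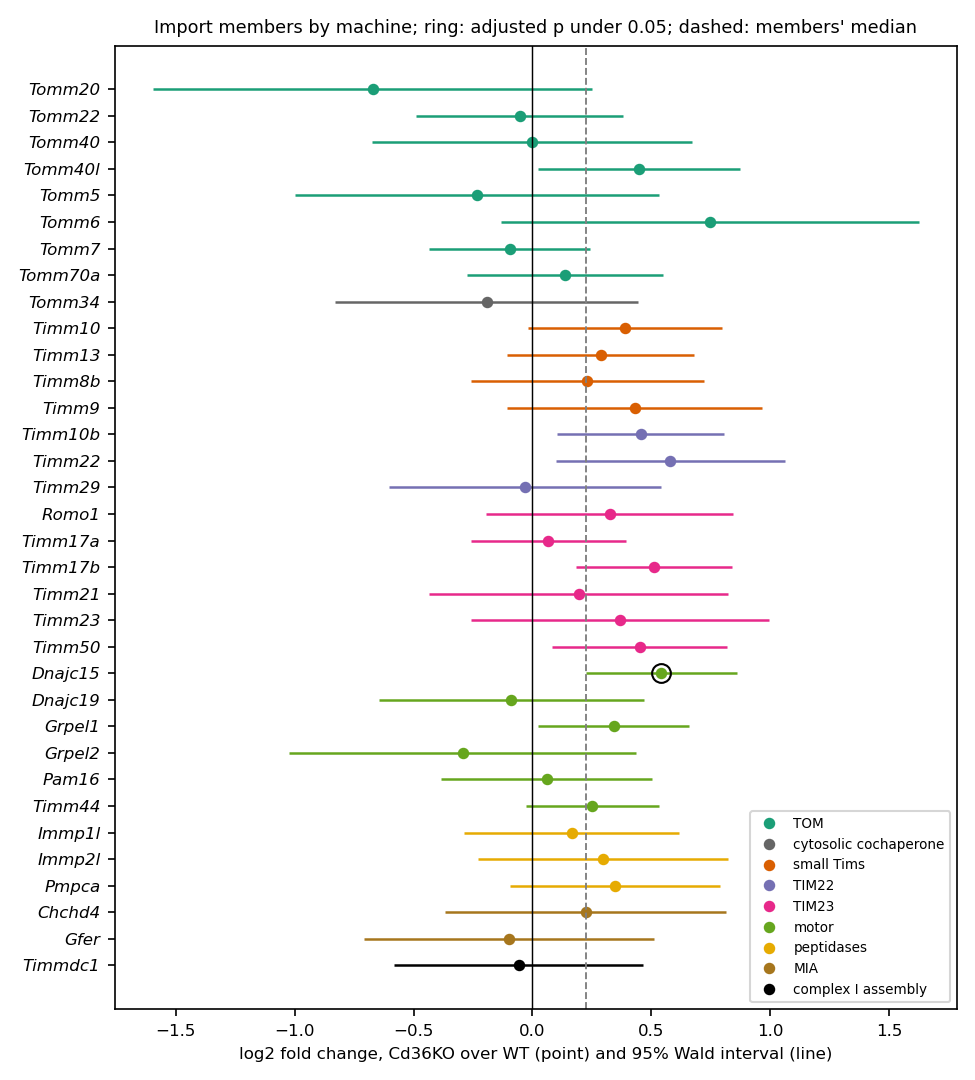
Log2 fold change of each tested member, Cd36KO over WT (x axis), with its 95% Wald interval (line), coloured by import machine, from DESeq2 on 4 WT and 4 Cd36KO libraries. Only Dnajc15, ringed, had an adjusted p under 0.05, and the dashed line marks the members' median of 0.23.

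Dnajc15 (ENSMUSG00000022013, chr14:77820681-77875125, minus strand, GRCm38) sits in the inner membrane beside the import motor and is also known to restrain complex I of the respiratory chain. Its normalized counts were 529.9, 746, 754 and 626 in WT 1 to 4. In the unnumbered Cd36KO library it had 1075, and in Cd36KO 2 to 4 it had 869, 974 and 947. Every Cd36KO library was thus above every WT library, with the unnumbered one highest and WT 1 lowest. The log2 fold change was 0.54 ± 0.16 (SE, n = 4 each), a 1.46-fold difference (DESeq2 adjusted p = 0.034). In edgeR the adjusted p was 0.159, and limma on the authors' log2 values also gave 0.159. Leaving out 1 library at a time kept the log2 fold change between 0.45 and 0.61, but the DESeq2 adjusted p passed 0.05 without WT 1 (0.0902), WT 2 (0.062), WT 3 (0.0552), the unnumbered library (0.188), Cd36KO 3 (0.0953) or Cd36KO 4 (0.0945). No annotated transcript of another gene shares a 75-base stretch with Dnajc15.

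Timm17b (ENSMUSG00000031158, chrX:7899357-7908351, plus strand, GRCm38), 1 of the alternative partners of the TIM23 channel, had 152, 172, 165 and 179 normalized counts in WT 1 to 4. It had 278.5 in the unnumbered Cd36KO library and 226, 219.9 and 228 in Cd36KO 2 to 4. No value of one group fell within the other, and the unnumbered library stood above the other 3 Cd36KO libraries. The log2 fold change of 0.51 ± 0.17 (SE, n = 4 each) missed the threshold narrowly (DESeq2 adjusted p = 0.0648; edgeR 0.148). Timm44 (ENSMUSG00000002949, chr8:4259731-4275913, minus strand, GRCm38), the peripheral protein that tethers the motor to the channel, had 299, 291, 278 and 312 normalized counts in WT and 373, 343, 368 and 320.3 in Cd36KO, unnumbered library first. Its groups were adjacent rather than wide apart, and the log2 fold change was 0.25 ± 0.14 (SE, n = 4 each; DESeq2 adjusted p = 0.397).

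**Figure D2:**
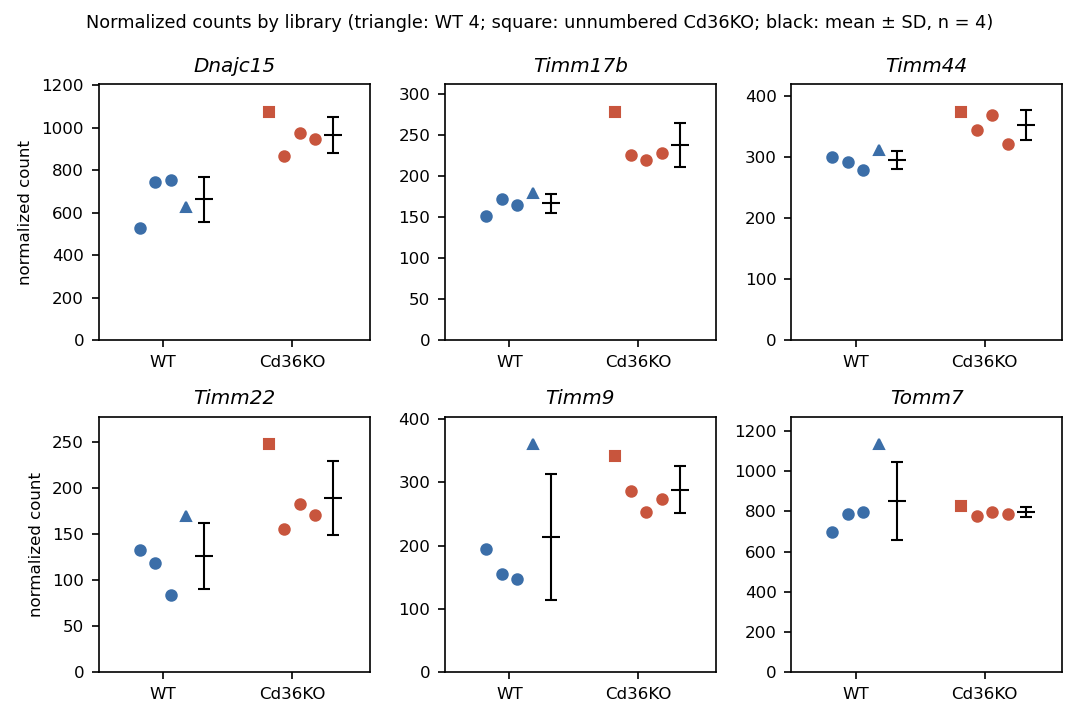
Normalized counts (y axis, from 0) of 6 members in each library, WT in blue and Cd36KO in red, with mean ± SD (n = 4) in black. The groups are separate for Dnajc15, Timm17b and Timm44, whereas in Timm9, Timm22 and Tomm7 the triangle of WT 4 reaches the Cd36KO values or lies above them.

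The promoters of these 3 members are shown because their groups did not overlap, and those of Timm10b, Timm50 and Grpel1 because they had an unadjusted p under 0.05 and hold a searched motif. Each window runs from 250 bases before to 50 bases after the RefSeq gene start, 5′ to 3′ on the gene's strand, with coordinates of GRCm38.p6. Capitals mark a motif found on either strand, and windows in lower case throughout held none of those searched.
Dnajc15, chr14:77874868-77875167, minus strand: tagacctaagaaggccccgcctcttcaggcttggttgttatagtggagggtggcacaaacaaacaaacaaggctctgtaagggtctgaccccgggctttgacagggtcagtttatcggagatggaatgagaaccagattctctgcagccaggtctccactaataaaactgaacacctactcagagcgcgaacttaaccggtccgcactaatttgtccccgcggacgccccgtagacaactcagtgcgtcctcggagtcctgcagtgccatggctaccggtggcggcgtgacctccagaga
Timm17b, chrX:7899086-7899385, plus strand: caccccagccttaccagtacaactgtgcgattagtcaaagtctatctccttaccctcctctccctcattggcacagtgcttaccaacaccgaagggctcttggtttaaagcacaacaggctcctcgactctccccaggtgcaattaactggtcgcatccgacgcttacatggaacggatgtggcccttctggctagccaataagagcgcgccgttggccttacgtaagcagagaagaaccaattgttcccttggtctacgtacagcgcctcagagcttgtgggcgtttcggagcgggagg
Timm44, chr8:4275856-4276155, minus strand: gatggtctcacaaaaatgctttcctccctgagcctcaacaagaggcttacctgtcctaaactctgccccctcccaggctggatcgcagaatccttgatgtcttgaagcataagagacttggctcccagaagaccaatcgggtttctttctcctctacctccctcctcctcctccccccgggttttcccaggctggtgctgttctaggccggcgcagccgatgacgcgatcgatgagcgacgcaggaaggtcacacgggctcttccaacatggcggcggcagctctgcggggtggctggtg
Timm10b, chr7:105640195-105640494, plus strand: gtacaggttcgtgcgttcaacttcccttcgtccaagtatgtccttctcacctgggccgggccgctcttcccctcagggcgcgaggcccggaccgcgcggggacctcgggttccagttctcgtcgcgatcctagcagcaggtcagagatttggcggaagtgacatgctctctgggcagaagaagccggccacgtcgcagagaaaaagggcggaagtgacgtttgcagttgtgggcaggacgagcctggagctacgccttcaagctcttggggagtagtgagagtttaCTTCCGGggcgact
Timm50, chr7:28311997-28312296, minus strand: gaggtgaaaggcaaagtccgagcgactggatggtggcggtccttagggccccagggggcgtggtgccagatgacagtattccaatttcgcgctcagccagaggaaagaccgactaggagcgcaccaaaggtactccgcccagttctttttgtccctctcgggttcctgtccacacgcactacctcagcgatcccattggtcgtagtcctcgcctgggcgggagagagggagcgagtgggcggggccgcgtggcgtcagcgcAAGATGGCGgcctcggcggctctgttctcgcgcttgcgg
Grpel1, chr5:36464935-36465234, plus strand: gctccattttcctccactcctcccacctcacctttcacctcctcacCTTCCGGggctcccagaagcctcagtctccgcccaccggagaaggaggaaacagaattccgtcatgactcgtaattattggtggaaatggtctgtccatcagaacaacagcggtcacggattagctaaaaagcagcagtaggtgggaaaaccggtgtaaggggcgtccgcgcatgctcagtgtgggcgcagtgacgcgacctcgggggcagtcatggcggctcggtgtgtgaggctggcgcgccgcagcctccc

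The 5 motifs searched on both strands were those of NRF1 (GCGCATGCG), ETS factors (CCGGAAG), YY1 (AAGATGGCG), ERR (TCAAGGTCA) and CRE (TGACGTCA), all known from promoters of nuclear genes for mitochondrial proteins. A promoter was given for 34 members, a set that is not the 34 with an adjusted p. The ETS letters were the most frequent and stood in 13 of the 34 members (38.2%), against 9.93% of 27025 genes and 12.9% of the 17491 protein-coding genes. The 13 were Timm10b, Timm29, Romo1, Timm23, Tomm22, Tomm70a, Timmdc1, Tomm34, Grpel1, Pmpca, Timm10, Timm8a2 and Timm8b, whose log2 fold changes, where tested, ran from -0.19 (Tomm34) to 0.46 (Timm10b). The YY1 letters stood in Timm50 and Immp1l (1.64% of genes), the NRF1 letters in Timm13 (1.95%), the ERR letters in Timm8b (0.466%) and the CRE letters in 0 members (2.03%). No member window held overlapping matches of different motifs. A match is a stretch of letters and not a binding site.

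The TOM complex, the common gate of the outer membrane, had 8 tested members whose log2 fold changes went both ways, from -0.67 (Tomm20) to 0.74 (Tomm6). The median was -0.03, with 3 above 0 and 5 below, and 0 was called. Tomm40, the channel, had a log2 fold change of -0.002 ± 0.34 (SE, n = 4 each). Its normalized counts were 83.95, 97.7, 43.5 and 106 in WT and 39.0, 101, 82.85 and 107.5 in Cd36KO, unnumbered library first, so WT 3 and the unnumbered library stood well below the other 6. Tomm22, the central receptor, had -0.05 ± 0.22 and Tomm70a, the receptor for carriers delivered by chaperones, had 0.14 ± 0.21. Tomm7, a small subunit and the most abundantly read of the TOM genes, had -0.10 ± 0.17, and its 4 Cd36KO libraries spanned only 778 to 829 normalized counts while WT spanned 695 to 1134. Its 95% interval of -0.44 to 0.24 holds no change as well as modest ones in both directions.

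The remaining TOM genes rested on few reads or on shared sequence. Tomm20, the presequence receptor, had 9 to 38 counts per library and a log2 fold change of -0.67 ± 0.47 (SE). Tomm5 had 13 to 34 counts and -0.23 ± 0.39. Tomm6 had 8 to 35 counts and 0.74 ± 0.45, and 74.0% of its 75-base stretches also occur in Gm21981 or the antisense RNA Tomm6os. Tomm40l, a paralogue of the channel, had 0.45 ± 0.22 (DESeq2 adjusted p = 0.28), but 60.65% of its 75-base stretches also lie in the overlapping gene Nr1i3 on the opposite strand. The counting strand is not stated, so reads of the pair cannot be told apart. Tomm34, a cytosolic cochaperone named with the TOM genes, had -0.19 ± 0.32.

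The 4 tested small Tim genes, which encode intermembrane space chaperones, all had log2 fold changes above 0, and 0 was called. Timm9 had 0.43 ± 0.27, Timm10 0.39 ± 0.21, Timm13 0.29 ± 0.20 and Timm8b 0.23 ± 0.25 (SE, n = 4 each). For Timm9 the normalized counts were 195, 155, 147 and 360.1 in WT 1 to 4 and 341, 287, 253 and 274 in Cd36KO, unnumbered library first, so that WT 4 was the highest of all 8 and the other 3 WT libraries were the lowest. Timm10, the partner of Timm9 in the chaperone ring, had 128, 169.9, 148 and 181 in WT and 238, 149.6, 209 and 224 in Cd36KO, with the groups interleaved through Cd36KO 2.

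The carrier translocase TIM22 had 3 tested members and 0 called. Timm22, the carrier channel, had 133, 119, 83.5 and 169 normalized counts in WT and 247, 155, 182 and 171 in Cd36KO, a log2 fold change of 0.58 ± 0.25 (SE; DESeq2 adjusted p = 0.197) with overlap through WT 4. Timm10b, the small Tim bound to this complex, had 198, 273.5, 221 and 213 in WT and 367, 268, 289.5 and 317 in Cd36KO, a log2 fold change of 0.46 ± 0.18 (DESeq2 adjusted p = 0.154) with overlap between WT 2 and Cd36KO 2. In Timm10b, 17.35% of 75-base stretches occur in overlapping genes. Timm29, which ties Timm22 to the outer membrane gate, had -0.03 ± 0.29 at 28 to 68 counts per library.

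In the TIM23 complex, the presequence translocase, all 6 members had log2 fold changes above 0, with a median of 0.35 and 0 called. Beside Timm17b, the receptor Timm50 had 232, 263, 294 and 247 normalized counts in WT and 453.5, 316, 284 and 362 in Cd36KO, a log2 fold change of 0.45 ± 0.19 (SE; DESeq2 adjusted p = 0.187), with only WT 3 above a Cd36KO value. Romo1, a small subunit that lines the channel, spread most in WT, from 629 in WT 1 to 1630.0 in WT 4, against 1133 to 1873 in Cd36KO (log2 fold change 0.32 ± 0.27). Of its 75-base stretches, 14.95% occur in the overlapping gene Nfs1, whose mean normalized count was only 42.1. Timm23, the channel, had 0.37 ± 0.32 at 28 to 95 counts, and 88.4% of its stretches also occur in other genes, among them processed pseudogenes, Gm10273 and Adam2. Timm21, which bridges to the TOM complex, had 0.19 ± 0.32, and Timm17a had 0.07 ± 0.17.

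The ratio of Timm17a to Timm17b, alternative subunits of the same translocase, did not overlap between groups. Timm17b alone also had separate groups, and neither gene passed the threshold with all libraries. No share of separated ratios over other gene pairs is given. The count of Timm17a over that of Timm17b within a library was 1.30, 1.15, 1.18 and 1.41 in WT 1 to 4, and 0.748, 0.99, 0.995 and 1.01 in Cd36KO, unnumbered library first. Timm17a thus had the higher count in every WT library and about the same count or less in every Cd36KO library. Transcript lengths differ, so a ratio near 1 does not mean equal molecules. The mean log2 ratio, with 1 added to each count, was 0.33 ± 0.13 for WT and -0.11 ± 0.21 for Cd36KO libraries (SD, n = 4 each), a difference of -0.43 that stayed between -0.47 and -0.33 when any single library was left out.

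**Figure D3:**
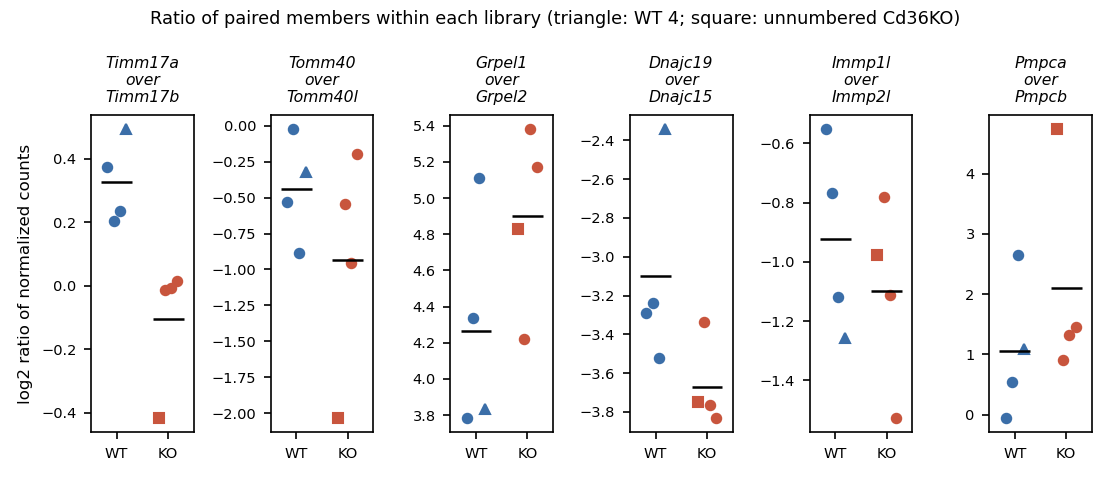
Log2 ratio of the normalized counts of paired genes within each library (y axes differ between panels), WT in blue and Cd36KO in red, black bars marking group means of 4. Timm17a over Timm17b separates the groups, whereas the other 5 pairs overlap.

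The other pairs overlapped between groups. Dnajc19 over Dnajc15, both J proteins of the motor, had mean log2 ratios (± SD, n = 4 per group) of -3.10 ± 0.52 for WT and -3.67 ± 0.23 for Cd36KO libraries, WT 4 lying far above the rest at -2.34. Grpel1 over Grpel2, the exchange factors of the motor chaperone, had 4.27 ± 0.62 and 4.90 ± 0.51, so Grpel1 was read many times more often than Grpel2 in every library, by 14.2-fold to 43.9-fold. Tomm40 over Tomm40l had -0.44 ± 0.36 and -0.93 ± 0.80, with the unnumbered library lowest at -2.03. Immp1l over Immp2l, the catalytic subunits of the inner membrane peptidase, had -0.92 ± 0.32 and -1.10 ± 0.32. Pmpca over Pmpcb, the subunits of the matrix processing peptidase, had 1.05 ± 1.16 and 2.11 ± 1.77, and the widest values came from WT 3 and the unnumbered library, where Pmpcb had 17.6 and 5.57 normalized counts against 43.0 to 99.3 elsewhere. The pairs with Tomm20l and Timm8a1 rested on too few counts to read.

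Among the motor genes, Dnajc15 passed the threshold and the other 5 tested members did not. Grpel1 had 473, 603, 724.5 and 563 normalized counts in WT and 756.5, 704, 808 and 722 in Cd36KO, a log2 fold change of 0.34 ± 0.16 (SE; DESeq2 adjusted p = 0.271), with only WT 3 reaching the Cd36KO range. Pam16, the J-like partner of the J proteins, had 0.06 ± 0.23, Dnajc19 had -0.09 ± 0.28 and Grpel2 had -0.29 ± 0.37. The presequence peptidases Pmpca (0.35 ± 0.23), Immp2l (0.30 ± 0.27) and Immp1l (0.16 ± 0.23) all had positive values and 0 was called. In the disulfide relay that folds intermembrane space proteins, the oxidoreductase Chchd4 had 0.22 ± 0.30 and its oxidase Gfer had -0.10 ± 0.31. Shared 75-base stretches made up 26.9% of Immp1l (a processed pseudogene), 26.1% of Pmpca (Inpp5e, opposite strand), 24.9% of Gfer (Dst) and 23.4% of Pam16 (Glis2, opposite strand), so these values are uncertain too. Timmdc1, named with the Timm genes but known as an assembly factor of complex I, had -0.06 ± 0.27.

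Library WT 4 stood apart from the other WT libraries in this gene set. It had the highest of the 4 WT values in 24 of the 34 tested members (70.6%), whereas it did so in 31.5% of all tested genes. Its members lay a median of 0.24 (log2) above their own means over the 8 libraries, while WT 1, 2 and 3 lay at -0.19, -0.17 and -0.25 and the Cd36KO libraries lay between 0.05 and 0.20. Member genes held 0.293%, 0.34%, 0.311% and 0.396% of nuclear-encoded counts in WT 1 to 4 and 0.416%, 0.387%, 0.404% and 0.383% in Cd36KO, unnumbered library first, so WT 4 was the single WT library inside the Cd36KO range. Its brown adipocyte markers, at 5890 CPM, lay within the range of the other WT libraries. Such sums are scaled to library totals, whereas member values are normalized by size factor. Ucp1, among these markers, had its highest WT value in WT 4, at 7028 normalized counts against 5527, 4598 and 4235 in WT 1 to 3. The general adipocyte markers of WT 4 (11300 CPM) were the highest of all 8 libraries, and its endothelial (199 CPM) and smooth muscle markers (34.2 CPM) were the lowest. Its fibroblast markers (460 CPM) were the lowest in WT, and its share of mitochondrial-genome counts was the highest of all at 32.1%. What sets WT 4 apart was not tested.

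**Figure D4:**
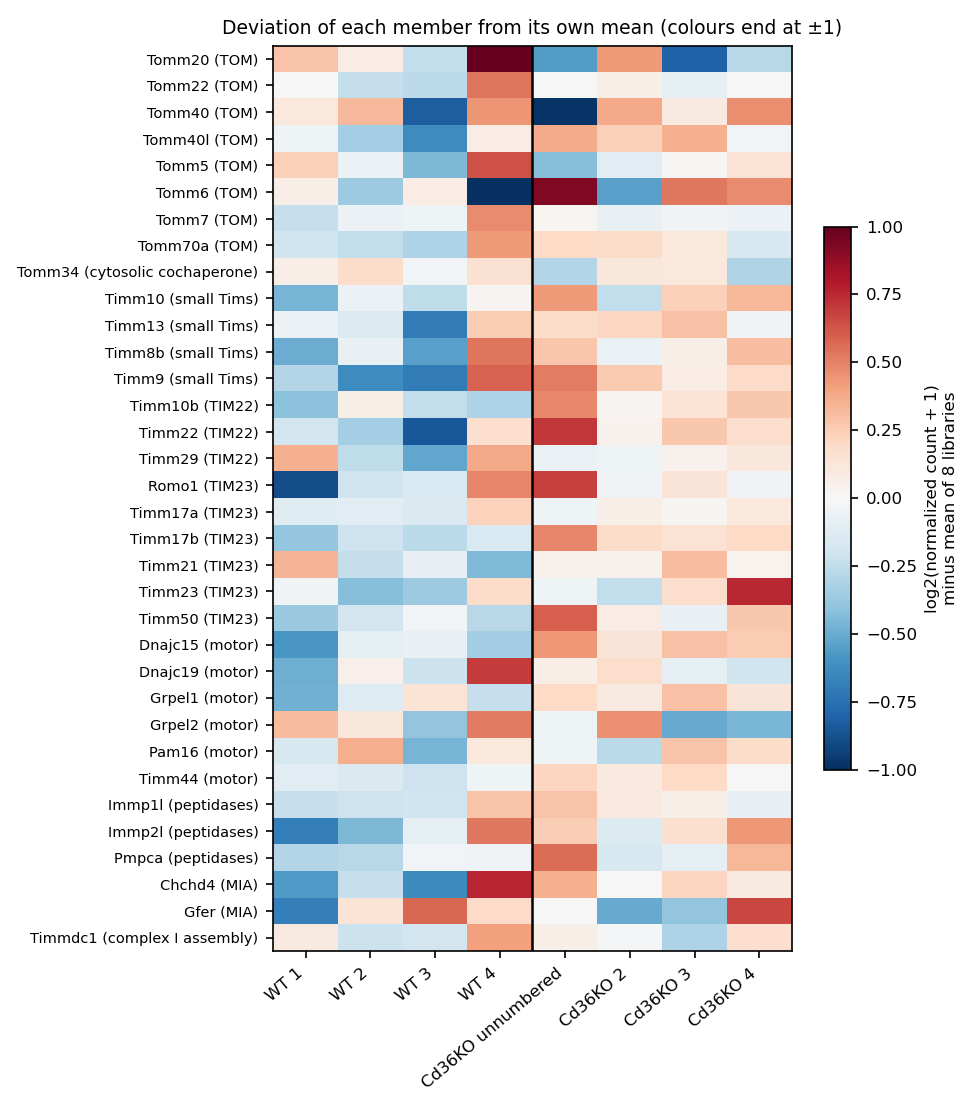
Deviation of each tested member (rows, grouped by machine) from its own mean over 8 libraries (columns), as log2(normalized count + 1), red above and blue below the mean. WT 1 to 3 are mostly blue, WT 4 is mostly red with a median of 0.24, and the Cd36KO libraries are mostly pale red.

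Without WT 4, all 4 Cd36KO libraries were above the remaining WT libraries in 13 of the 26 members with a mean of at least 50, against 15.3% of genes at that level, and 10 of these 13 had overlapped only through WT 4 (Chchd4, Timm22, Romo1, Timm17a, Tomm40l, Tomm70a, Immp1l, Timm13, Timm8b and Timm9). In DESeq2 without WT 4, Timm21, Timm23, Tomm20, Tomm5, Tomm6, Tomm34 and Grpel2 received no adjusted p. Fewer members were thus tested than with all libraries. That fit called 5 members higher, against 5.74% of its 5719 tested genes. These were Timm9 (log2 fold change 0.80 ± 0.195, SE; adjusted p = 0.00278), Timm22 (0.75 ± 0.245; 0.0323), Chchd4 (0.64 ± 0.22; 0.0468), Timm17b (0.545 ± 0.18; 0.0404) and Dnajc15 (0.51 ± 0.17; 0.0404). Chchd4 and Timm9 had adjusted p-values of 0.797 and 0.469 with all libraries. The median over the members moved from 0.23 to 0.33 without WT 4, whereas it was 0.12 without WT 1 and 0.13 without WT 3.

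With the skeletal muscle score as a covariate the log2 fold change of Dnajc15 was 0.50 and its DESeq2 adjusted p was 0.225, and 0 members were called. With the white fat score as a covariate Dnajc15 had 0.87 (adjusted p = 0.00729) and Romo1 had 1.26 (adjusted p = 0.00128), the 2 called of the 29 members tested in that fit, in which 6.95% of 7040 tested genes were called higher. That score lay at 5.63 to 6.06 in WT 2 to 4 and at 2.92 to 3.79 in Cd36KO, with only WT 1 (3.58) among the Cd36KO values, so score and genotype can hardly be told apart, and Romo1 was lowest in WT 1. The part of brown adipocyte markers in the members' values was not tested.

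Other genes of the import pathway, 28 in all and outside the naming rule, had a median log2 fold change of 0.18, with 21 of 28 above 0, against 49.2% of all tested genes. Of the 28, 1 was called (3.57%), near the 2.95% of all tested genes called in either direction. Mtch1, an outer membrane protein related to the insertase Mtch2, was that gene, and it was higher. Its normalized counts were 895.5, 990.4, 1175 and 1101 in WT and 2277, 1407, 1654 and 1756 in Cd36KO, unnumbered library first, with no overlap and a log2 fold change of 0.77 ± 0.18 (SE, n = 4 each; DESeq2 adjusted p = 0.00289; edgeR 0.11). It stayed called in DESeq2 without any single library, at adjusted p-values of 0.000664 to 0.0275. Its paralogue Mtch2 had 0.53 ± 0.26 (adjusted p = 0.301 in DESeq2), with WT 4 inside the Cd36KO range. Of the pores of the outer membrane, Vdac2 had 0.38 ± 0.15 and Vdac3 0.54 ± 0.21, whereas Vdac1 had -0.44 ± 0.19, and 0 of these 3 was called. Hspa9, the motor chaperone itself, had 0.10 ± 0.15 with a 95% interval of -0.20 to 0.40.

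Set beside other nuclear genes of mitochondria, import members had the lower median log2 fold change. The 80 tested subunits of oxidative phosphorylation had a median of 0.405, with 69 above 0, 19 called higher and 1 lower. The 74 tested mitochondrial ribosomal proteins had a median of 0.32, with 59 above 0, 8 called higher and 0 lower. Over all tested genes 2.95% were called in either direction, and the import members, with 1 of 34 called (2.94%), lay at that background. The difference between these lists was not tested.

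**Figure D5:**
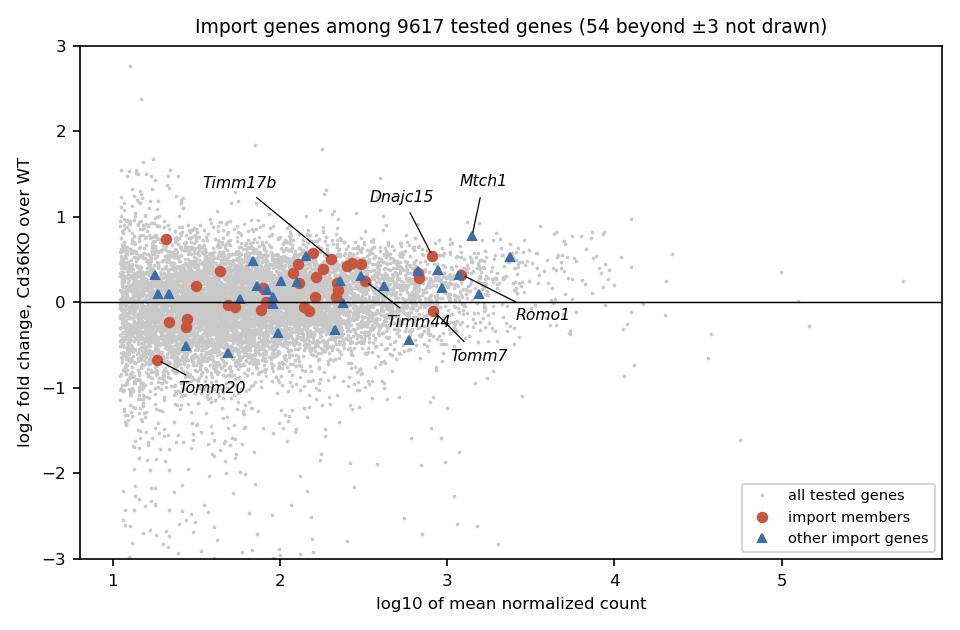
Log2 fold change, Cd36KO over WT (y axis), against log10 of the mean normalized count (x axis) for the 9617 tested genes (grey, of which 54 beyond ±3 are not drawn), import members (red) and other import genes (blue). Import members lie between -0.67 and 0.74, with Dnajc15 at 0.54 and the other import gene Mtch1 at 0.77.

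Of the members, 11 start within 1000 bases of the start of a protein-coding gene on the opposite strand, and both genes of 10 pairs had a fitted log2 fold change. The sign was the same in 2 pairs (Parg and Timm23, Yipf2 and Timm29) and opposite in 8, and 9 of the 10 neighbours did not pass the threshold. The 10 neighbours averaged only 11.1 to 78.0 normalized counts. No share of signs over other such pairs is given, so the signs are a description only. Chchd4 starts 157 bases from Tmem43, a nuclear envelope protein, on the opposite strand. Tmem43 had 41.5, 79.8, 85.9 and 139.5 normalized counts in WT and 23.4, 40.3, 36.8 and 49.6 in Cd36KO, with WT 1 inside the Cd36KO range, and it was lower (log2 fold change -1.20 ± 0.37, SE; DESeq2 adjusted p = 0.0422; edgeR 0.126), while Chchd4 had 0.22. Its adjusted p was 0.132 without WT 3, 0.105 without WT 4, 0.19 without the unnumbered library and 0.0921 without Cd36KO 3 in DESeq2, and with the white fat score as a covariate its log2 fold change was -0.12 (adjusted p = 0.92). Timm8b starts 98 bases from Sdhd, a subunit of complex II, which had -0.27 ± 0.48 beside 0.23 for Timm8b. Pmpca starts 23 bases from Entr1, which had -0.61 ± 0.30 beside 0.35 for Pmpca, and Timm17b starts 88 bases from Pqbp1, which had -0.23 ± 0.24 beside 0.51.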

How the data were processed

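The members and all gene lists were chosen with earlier results of these data known. RNA from BAT was sequenced as single-end reads of 75 cycles. According to the methods of the study, reads were trimmed by the authors with bbduk, aligned to mm10 with STAR and counted with HTSeq-count in a sequencing service's digital mRNA-seq pipeline. The labels name Trimmomatic, HISAT2 and DESeq2 instead. The annotation release, strand setting and use of molecular identifiers are not given in the sources used here, and members that overlap another gene or share sequence with it are less certain. The deposited table used for all main results holds whole-number counts per gene, not normalized. A second deposited table holds log2 values, which equal log2(x + 1), x being the count over its library's DESeq2 size factor, with a largest relative deviation of 3.55e-14, and it served 1 alternative test. Every pair of libraries within a group differed by more than sampling noise (lowest chi-square per degree of freedom 6.43).

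Symbols, coordinates (1-based) and transcripts came from GENCODE release M21 on GRCm38, and 31011 of 31053 identifiers matched. Promoters came from RefSeq on GRCm38.p6 and matched 34 members. Protein sequences were not used here, so a planned search of small Tim proteins for paired cysteine motifs was not run.

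All genes were fitted with DESeq2 1.42.0 (Wald test, unshrunken fold changes, default independent filtering at 0.1) under R 4.3.3. Genotype was the sole model term, with Benjamini-Hochberg adjustment over all genes, threshold 0.05. The study's methods name DESeq2. Alternatives were edgeR 4.0.16, limma 3.58.1 on the log2 values, TMM factors, each library left out, a block for replicate number, no independent filtering, genes kept only with 10 counts in 4 libraries, and muscle or white fat marker scores as covariates. Tuning the filtering to 0.05 was an alternative chosen after seeing the data. Muscle and white fat scores are the mean TMM-scaled log2 CPM (prior count 2) of the listed markers with any count. All members were named by machine, with values per library for those called, those whose groups did not overlap (mean of 50 or more normalized counts), and paralogue pairs. The listed other import genes were named where called. Further per-library values, and Tmem43, Mtch2, the Vdac genes and Hspa9, were chosen after values were seen. In counts simulated for this comparison over 31053 genes, with 200 changed 3-fold, DESeq2 recovered 96.0% with 10.7% false calls, and edgeR 95.5% with 6.83%. The changed genes averaged at least 50 normalized counts, and smaller changes were not simulated. These rates therefore do not tell how often differences of the members' size are found. Paralogue ratios, group overlap and motif shares are descriptions without a test. Members had 0 to 1681 counts per library.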

Additional observations from a re-analysis of the deposited data

Results flagged for a closer look

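Among members averaging 10 or more normalized counts, 1 library lay far from the other 3 of its group, by Dixon's ratio on the log2 scale, in 5 of 68 groups, where chance gives about 3.4 (1 in 20). WT 4 was the library in 3 of the 5. Timm17a had 252 normalized counts in WT 4 against 194, 197 and 199 in the other WT libraries. Tomm70a had 296 against 178, 185 and 191, and Immp1l had 95.9 against 66.8, 67.9 and 68.2. The unnumbered Cd36KO library stood out for Timm17b, at 279 against 220, 226 and 228 normalized counts, and Cd36KO 3 stood out for Timm21, at 38.9 against 32.03, 32.22 and 32.31.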

How the results depend on the processing

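Dnajc15 was the single member called with all libraries. The count was 0 in edgeR and in limma on the authors' log2 values (6 and 7 members at an unadjusted p under 0.05), 0 with independent filtering off, 0 with the muscle score and 2 with the white fat score, and between 0 and 5 when each library was left out. Called other import genes numbered 0 in edgeR and limma, 2 with the white fat score and 1 to 4 when a library was left out (4 without WT 4, 2 without Cd36KO 2). Members whose groups did not overlap ranged from 3 to 13 when a library was left out (5 without WT 3, 13 without WT 4, 6 without Cd36KO 2, against 8.88%, 15.3% and 11.5% of genes). Over all genes, 284 were called in the reported DESeq2 fit, 14 in edgeR, 0 in limma (1542 at an unadjusted p under 0.05), 171 with filtering off, 190 with the muscle score and 613 with the white fat score, 489 of them higher against 137 of 284. Left-out libraries gave 70 (without WT 2) to 498 (without WT 4). The median member log2 fold change of 0.23 lay between 0.12 and 0.39 in these fits, and 0 members were called lower.

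Libraries with the same replicate number belong to different genotypes. Their deviations from group means correlated at -0.13, 0.42 and 0.14, and 3 of 6 numbered libraries correlated best with their own number, so the numbers were not taken to pair them. With the replicate number as a block on these 3 pairs, 221 genes (32 higher), 0 members and 0 other import genes were called, against 262 genes (48 higher), 0 members and 1 other import gene in the same 6 libraries without the block. In both fits 1 member had an unadjusted p under 0.05. Under the block and without it, log2 fold changes turned to 0.16 and 0.12 for Timm29, 0.31 and 0.23 for Tomm40, and -0.0259 and -0.0582 for Romo1.

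Tested members whose log2 fold change turned sign missed the threshold with all libraries and in the alternative that turned it. With the muscle score they were Timm29 (0.21), Tomm22 (0.0473) and Timmdc1 (0.13). With the white fat score they were Gfer (0.78), Timm21 (-0.30), Tomm22 (0.0786), Tomm7 (0.25), Timmdc1 (0.00676) and Dnajc19 (0.58), and in limma Timm29 (0.021). Leaving out a library gave ranges across 0 for Gfer (-0.41 to 0.0915), Timm29 (-0.17 to 0.10), Tomm22 (-0.14 to 0.15), Tomm40 (-0.21 to 0.23), Tomm7 (-0.18 to 0.0708), Timmdc1 (-0.14 to 0.0866), Dnajc19 (-0.24 to 0.19) and Pam16 (-0.06 to 0.21). Tomm6os, which was not tested for want of reads, ran from -0.37 to 1.55 when a library was left out. It had -0.43 with the muscle score, 2.11 with the white fat score, 0.38 with the block and -0.21 without the block. The cause of these shifts was not tested. At this depth a 2-fold difference lay inside the 95% interval of Timm22, Tomm20, Tomm6 and Grpel2.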

Other observations

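Tomm40 was the only one of the 26 members averaging 50 or more normalized counts that was lower in WT 3 and in the unnumbered Cd36KO library, at 43.5 and 39.0 normalized counts, than in all other 6 libraries. This pattern was found in 192 of 5528 genes at that level (3.47%). Pmpcb, the partner of Pmpca in the matrix peptidase and singled out once its values had been seen, had the same order with 17.6 and 5.57 normalized counts in these libraries, but its mean was below 50. Timm8a1 had 20.1 normalized counts (18 reads) in the unnumbered Cd36KO library and 1.02 in Cd36KO 3, while the 4 WT libraries lay between 3.96 and 5.10.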
